A study of Mus musculus with 6 samples.

Results

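Voltage-gated sodium channels were followed through the transcripts of their pore-forming alpha subunits in the dorsal root ganglia of mice, where the cell bodies of sensory neurons lie. The members are the 7 alpha subunit genes Scn1a, Scn2a, Scn3a, Scn8a, Scn9a, Scn10a and Scn11a, taken by symbol from the 22087 genes of the deposited count table. All 7 were present, and all 7 were among the 17759 genes that passed the filter on low counts. Poly(A) RNA of whole ganglia from mice aged 3 months had been sequenced in 2 groups of 3 libraries. The conditional knockout had the genotype Kif2a fl/fl; Avil Cre, in which the advillin gene Avil drives Cre recombinase in sensory neurons and Cre cuts the loxP-flanked alleles of Kif2a, a kinesin that takes microtubule ends apart. The control had the genotype Kif2a fl/fl without Cre. Both groups therefore carry the loxP-flanked alleles, glia and other cells of the ganglion are not meant to lose Kif2a, and there was no library with Cre alone. The series asks about the part of Kif2a in nociception. Whether each library is its own animal is not stated in the labels, so every p-value refers to differences among libraries, and these can include technical ones.

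Each alpha subunit is one long protein that folds into a pore for sodium ions with its own voltage sensors and gate, and opening of these channels starts and carries the action potential. Sensory neurons mix several of them. Scn9a (Nav1.7) amplifies small depolarisations in nociceptors, Scn10a (Nav1.8) carries most of the upstroke of their action potential, and Scn11a (Nav1.9) gives a slow, persistent current near the resting potential. Scn1a (Nav1.1) and Scn8a (Nav1.6) serve fast-firing, mostly myelinated neurons, Scn2a (Nav1.2) is chiefly a channel of the central nervous system, and Scn3a (Nav1.3) is high in the embryo and returns after nerve injury. Tetrodotoxin blocks all of these except Scn10a and Scn11a, which are therefore known as the tetrodotoxin-resistant channels of nociceptors.

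The division into sensitive and resistant channels can be read from the first pore loop, where the sensitive channels of this set have an aromatic amino acid and the resistant pair has serine. The 45 coding bases around that codon are shown for 6 of the 7 genes, since the results below are ordered by this division. Bases are from GENCODE release M21 transcripts on GRCm38 (mm10), 5′ to 3′ on the coding strand, and the capitals mark the codon.
Scn10a: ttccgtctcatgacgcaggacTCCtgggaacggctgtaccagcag
Scn11a: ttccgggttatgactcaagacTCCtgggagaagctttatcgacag
Scn9a: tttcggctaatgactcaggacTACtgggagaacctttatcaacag
Scn3a: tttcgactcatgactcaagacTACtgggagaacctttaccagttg
Scn8a: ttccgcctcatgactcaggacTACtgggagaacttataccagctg
Scn2a: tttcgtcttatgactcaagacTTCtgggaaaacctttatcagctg
The resistant pair has the serine codon TCC, Scn9a, Scn3a and Scn8a have the tyrosine codon TAC, and Scn2a has the phenylalanine codon TTC. Counted from the start codon, it is codon 356 of Scn10a and 358 of Scn11a, against 362 of Scn9a, 384 of Scn3a, 371 of Scn8a and 385 of Scn2a. The stretch lies within exon 9 of the transcript used in each of these genes. On the minus strand it is at chr9:119666366-119666410 for Scn10a, chr9:119805659-119805703 for Scn11a, chr2:66548980-66549024 for Scn9a and chr2:65521792-65521836 for Scn3a. On the plus strand it is at chr2:65688415-65688459 for Scn2a and chr15:100971617-100971661 for Scn8a.

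Over the whole coding sequence, Scn10a and Scn11a were identical at 68.5% of aligned bases. Scn2a and Scn3a were the closest pair at 83.9%. This bears on the counts, because a read from a stretch that 2 genes share cannot be placed. Of all 50-base words in the transcripts of a gene, 8.25% of those of Scn3a and 8.01% of those of Scn2a also occurred in another member, against 5.30% for Scn1a, 5.17% for Scn9a and 0.0393% for Scn8a. None of the words of Scn10a and Scn11a did, 0 of 6755 and 0 of 5880. The read length is not given in the sources used here, so the word length is an example. Scn9a shares 1.41% of its exon bases with the antisense gene Gm13629 on the opposite strand, and whether counting used strand is not given in the sources used here. No other member shared exon bases with the exons of another annotated gene.

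The libraries held 21683083 to 23861941 counts in the conditional knockout and 22107327 to 31626625 in control, and the members had from 197 to 22723 counts in each. Kif2a was at 67.9 ± 1.70 CPM (read counts scaled to library size by the TMM method) in the conditional knockout and 85.6 ± 4.87 CPM in control (SD, n = 3 each), without overlap and with an edgeR adjusted p of 0.9999. Avil itself was at 287 ± 68.7 CPM in the conditional knockout and 582 ± 17.5 CPM in control, also without overlap (edgeR adjusted p 0.444, DESeq2 adjusted p 6.91e-05). Neither value says how much of the recombined region is still transcribed. Conditional knockout replicates 1 and 2 stood apart from each other in markers of other cell types. Summed over 10 Schwann cell markers, the conditional knockout libraries 1 to 3 had 10612, 4653 and 5991 CPM, against 6622 to 8304 CPM in control. Over 6 fibroblast markers they had 3745, 961 and 1752 CPM, against 1647 to 2085 CPM in control. Over 12 markers of neurons in general they had 10066, 13773 and 12218 CPM, against 11315 to 12742 CPM in control. All 12 neuronal markers were in the table. Of these 12, 5 averaged higher and 7 lower in the conditional knockout, with a median log2 fold change of -0.06. The splicing factor Rbfox3 (log2 fold change -0.43, unadjusted edgeR p 0.00881) and the transcription factor Pou4f1 (-0.45, 0.0110) were lower in the conditional knockout without overlap. They were the only 2 of the 12 without overlap, against 8.66% of all tested genes, and neither passed over all genes. In these bulk libraries fewer cells of a type and less RNA per cell cannot be told apart.

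Scn11a was the member with the largest difference between groups. It was at 236, 373 and 228 CPM in conditional knockout replicates 1 to 3, against 348, 454 and 424 CPM in control replicates 1 to 3. Conditional knockout replicates 1 and 3 lay below every control library, and replicate 2 lay above control replicate 1, so the groups overlapped. The means were 279 ± 82.0 CPM in the conditional knockout and 409 ± 54.5 CPM in control (SD, n = 3 each), or 68.2% of control. This is a log2 fold change of -0.55 ± 0.21 (SE), 95% interval -1.02 to -0.08. The unadjusted edgeR p was 0.0269 and the edgeR p adjusted over all genes 0.9999. An exact permutation of the libraries gave a two-sided p of 0.2, where 0.1 is the smallest that 3 against 3 can give. In the authors' deposited table Scn11a has a log2 fold change of -0.55 and a false discovery rate from fdrtool of 0.0486, whereas DESeq2 with Benjamini-Hochberg adjustment on the same counts gave 0.828. That fdrtool rate is 0.0408 for Kif2a, and the next lowest among the members is 0.378, for Scn3a. The share of all genes with an fdrtool rate under 0.05 was not counted, so it cannot be said whether this rate sets Scn11a apart. Without conditional knockout replicate 2 the log2 fold change was -0.81 with an edgeR adjusted p of 0.0889.

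Scn10a, the other tetrodotoxin-resistant channel, was at 526, 821 and 526 CPM in the conditional knockout and at 658, 755 and 734 CPM in control. Conditional knockout replicate 2 was the highest of all 6 libraries, and the other 2 of that group were the lowest. The mean was 624 ± 171 CPM in the conditional knockout and 716 ± 50.9 CPM in control (SD, n = 3 each), a log2 fold change of -0.20 ± 0.19 (SE) with a 95% interval from -0.63 to 0.23 and an unadjusted edgeR p of 0.326. This value hung on single libraries: it was -0.44 without conditional knockout replicate 2 (edgeR adjusted p 0.178) and -0.07 without either replicate 1 or replicate 3 of that group.

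Scn9a, by contrast, was nearly level between groups. It was at 434, 561 and 453 CPM in the conditional knockout and at 481, 477 and 455 CPM in control, with means of 483 ± 68.6 CPM in the conditional knockout and 471 ± 13.9 CPM in control (SD, n = 3 each). Conditional knockout replicate 2 was again the highest library, and the other 2 of that group were just below the lowest control. The log2 fold change of 0.04 ± 0.14 (SE) had a 95% interval from -0.27 to 0.34, and the edgeR adjusted p was 0.9999. Gm13629, which overlaps it, had 26, 67 and 69 counts in the conditional knockout and 98, 34 and 75 in control, against at least 9467 for Scn9a.

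Scn1a and Scn8a, the channels of fast-firing neurons, varied within each group more than between them. Scn1a was at 114, 205 and 174 CPM in the conditional knockout and at 175, 107 and 153 CPM in control. This gave 0.18 ± 0.25 (SE) as log2 fold change, 95% interval -0.39 to 0.75. Scn8a was at 82.3, 145 and 112 CPM in the conditional knockout and at 142, 105 and 113 CPM in control, a log2 fold change of -0.08 ± 0.21 with a 95% interval from -0.56 to 0.40. For both genes the 2 highest libraries were conditional knockout replicate 2 and control replicate 1, and the 2 lowest were conditional knockout replicate 1 and control replicate 2. The same 4 libraries were the 2 highest and the 2 lowest for the summed level of 14 markers of myelinated touch and proprioceptive neurons, which was 4766, 7588 and 5996 CPM in the conditional knockout and 7570, 5209 and 6840 CPM in control. These 14 markers include Ret, which was also close to Scn11a in its pattern over the libraries. The part of these neurons in the levels of Scn1a and Scn8a was not tested. The log2 fold change of Scn1a was -0.0055 when conditional knockout replicate 2 was left out and 0.39 when replicate 1 of that group was. Leaving out control replicate 1 or 2 gave 0.33 or 0.01. That of Scn8a turned to 0.06 without control replicate 1 and to 0.11 without conditional knockout replicate 1, and was -0.30 without conditional knockout replicate 2.

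Scn3a and Scn2a were the 2 members with the lowest counts, and both averaged higher in the conditional knockout. Scn3a, the channel associated with development and injury, was at 10.6, 13.5 and 10.8 CPM in the conditional knockout and at 8.98, 9.26 and 9.53 CPM in control. Every conditional knockout library was above every control library, and Scn3a was the only member for which the groups did not overlap, where 8.66% of all tested genes, and 7.91% of those with a mean of at least 10 CPM, had groups without overlap. The means were 11.6 ± 1.63 CPM in the conditional knockout and 9.26 ± 0.276 CPM in control (SD, n = 3 each), a log2 fold change of 0.33 ± 0.16 (SE) with a 95% interval from -0.03 to 0.69. The edgeR p was 0.0668 before and 0.9999 after adjustment, and exact permutation gave a two-sided p of 0.1. Without conditional knockout replicate 2 the log2 fold change was 0.22.

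Scn2a was at 22.8, 30.2 and 26.8 CPM in the conditional knockout and at 24.7, 23.7 and 21.4 CPM in control. The groups overlapped through conditional knockout replicate 1. The difference on the log2 scale was 0.19 ± 0.14 (SE), 95% interval -0.11 to 0.50, with an unadjusted edgeR p of 0.189. The value was 0.10 without conditional knockout replicate 2 and 0.31 without conditional knockout replicate 1. Spinal cord and brain markers, of which 9 of 12 were tested, summed to between 43.1 and 114.4 CPM in the conditional knockout and between 113.8 and 279.3 CPM in control. The overlap came only through conditional knockout replicate 1, at 114.4 CPM. Of the 9, 8 averaged lower in the conditional knockout, with a median log2 fold change of -1.48. An unadjusted edgeR p under 0.05 was found for 6 of the 9, against 4.67% of all tested genes. For 4 of the 9 the groups did not overlap, against 8.66% of all tested genes. Their part in the level of Scn2a was not tested.

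**Figure D1:**
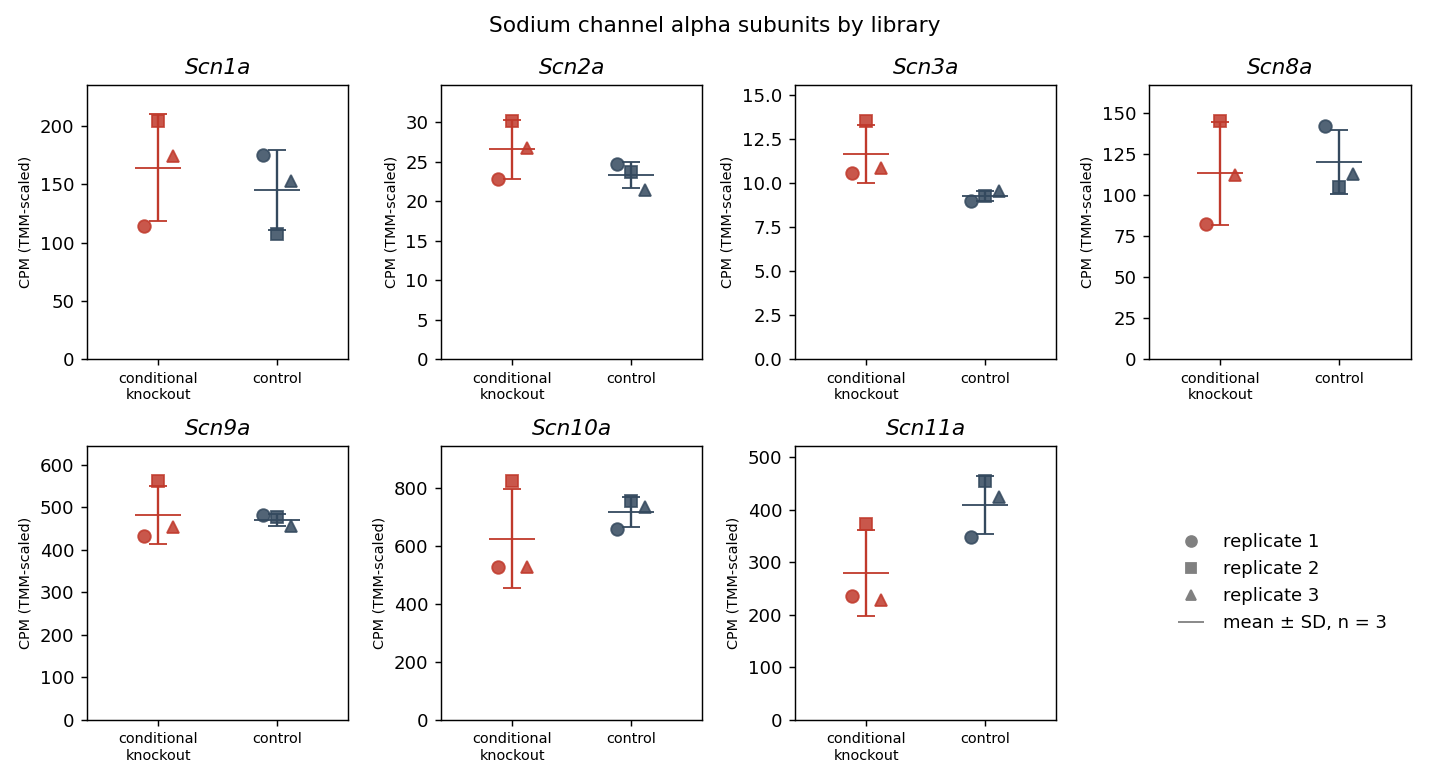
Level of each alpha subunit gene in CPM (y axis, from 0) in the 3 conditional knockout libraries (left) and the 3 control libraries (right). Symbols mark replicates and bars the mean ± SD (n = 3): the groups of Scn3a do not overlap, those of the other 6 genes do, and conditional knockout replicate 2 is the highest of its group in all 7 panels.

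As a family the 7 members split, with 4 higher and 3 lower in the conditional knockout and a median log2 fold change of 0.04, against 0.0059 over all 17759 genes tested. The count that passed the edgeR test over all genes was 0 of 7, where 4 genes (0.0225%) passed in the whole table. At an unadjusted edgeR p under 0.05 there was 1 of 7, Scn11a, against 4.67% of all genes (1.58% of all genes with a higher and 3.09% with a lower level in the conditional knockout). DESeq2, which called 24 genes in the whole table, and limma, which called 4, likewise called none of the 7.

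**Figure D2:**
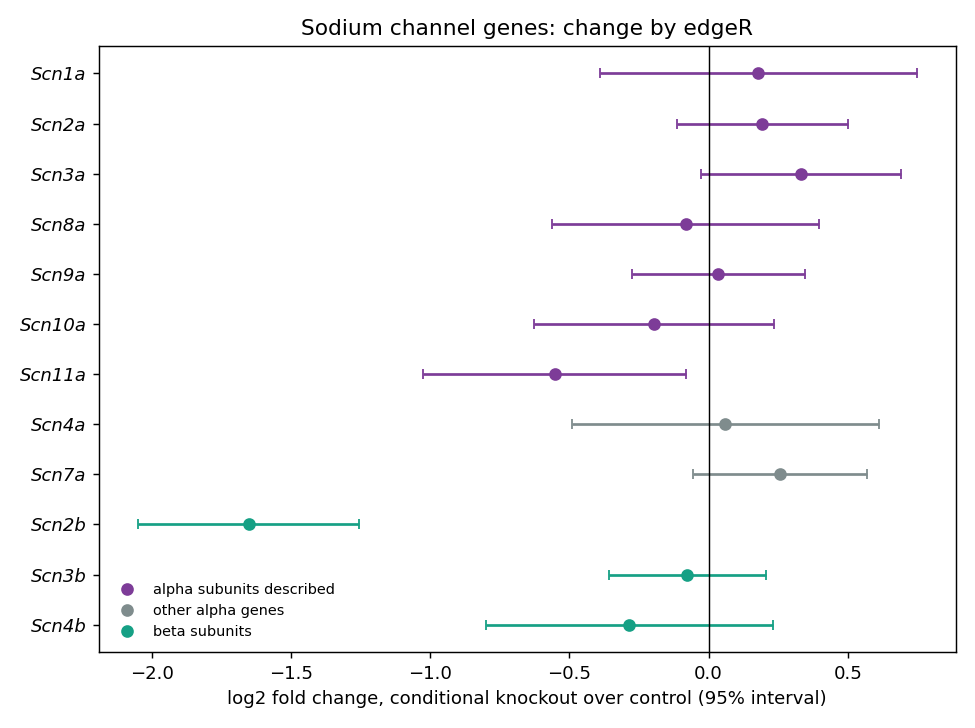
Log2 fold change, conditional knockout over control, with its 95% interval from edgeR (x axis) for the 7 alpha subunits described, 2 other alpha genes and 3 beta subunits (y axis). Only the intervals of Scn11a, from -1.02 to -0.08, and of the beta subunit Scn2b, from -2.05 to -1.25, exclude 0.

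To compare levels between genes, CPM was divided by the length of the merged exons of each gene, a measure known as RPKM. Scn10a stood highest, at 78.4 ± 21.4 RPKM in the conditional knockout and 89.9 ± 6.40 RPKM in control (SD, n = 3 each). Scn11a followed at 47.0 ± 13.8 RPKM in the conditional knockout and 68.9 ± 9.18 RPKM in control, and then Scn9a at 37.8 ± 5.37 RPKM in the conditional knockout and 36.9 ± 1.08 RPKM in control. Scn1a was at 14.7 ± 4.13 RPKM in the conditional knockout and 13.0 ± 3.09 RPKM in control. Scn8a was at 7.18 ± 2.0 RPKM in the conditional knockout and 7.61 ± 1.24 RPKM in control. All 5 levels so far were above those of the remaining pair. Scn2a was at 2.09 ± 0.292 RPKM in the conditional knockout and 1.83 ± 0.131 RPKM in control, and Scn3a was lowest, at 0.935 ± 0.131 RPKM in the conditional knockout and 0.743 ± 0.0222 RPKM in control. With these lengths the order was the same in both groups. Neighbours in it did not overlap between libraries of one group, except that Scn11a and Scn9a overlapped in the conditional knockout, where Scn11a ranged from 38.4 to 63.0 RPKM and Scn9a from 34.0 to 43.9 RPKM. With the longest transcript as length, the order of this pair turned in the conditional knockout, with Scn9a at 49.1 ± 6.98 RPKM and Scn11a at 47.3 ± 13.9 RPKM and overlapping. In control Scn11a stayed above Scn9a, at 69.3 ± 9.23 against 47.9 ± 1.41 RPKM without overlap.

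Scn10a and Scn11a together made up 67%, 68.9% and 63.1% of the summed RPKM of the 7 members in the conditional knockout, against 68.5%, 75.3% and 73.5% in control. The share was 66.3 ± 2.99% in the conditional knockout and 72.4 ± 3.53% in control (SD, n = 3 each), and conditional knockout replicate 2 and control replicate 1 overlapped. With merged exons as length, all of this gap lay in Scn11a. Its share was 25.2%, 26.1% and 23.2% in the conditional knockout and 28.4%, 33.6% and 32.1% in control. The share of Scn10a was 41.5 ± 1.48% in the conditional knockout and 41.0 ± 0.870% in control. With the longest transcript as length, the share of Scn10a was 41.6 ± 1.72% in the conditional knockout and 41.8 ± 1.24% in control. Scn9a had a share of 20.4 ± 1.88% in the conditional knockout and 16.9 ± 1.20% in control. The summed RPKM of the 5 tetrodotoxin-sensitive members was 52.1 to 75.0 in the conditional knockout and 56.2 to 65.1 in control. A share can move because any member moves, so these values describe the balance of the family and not a single gene.

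**Figure D3:**
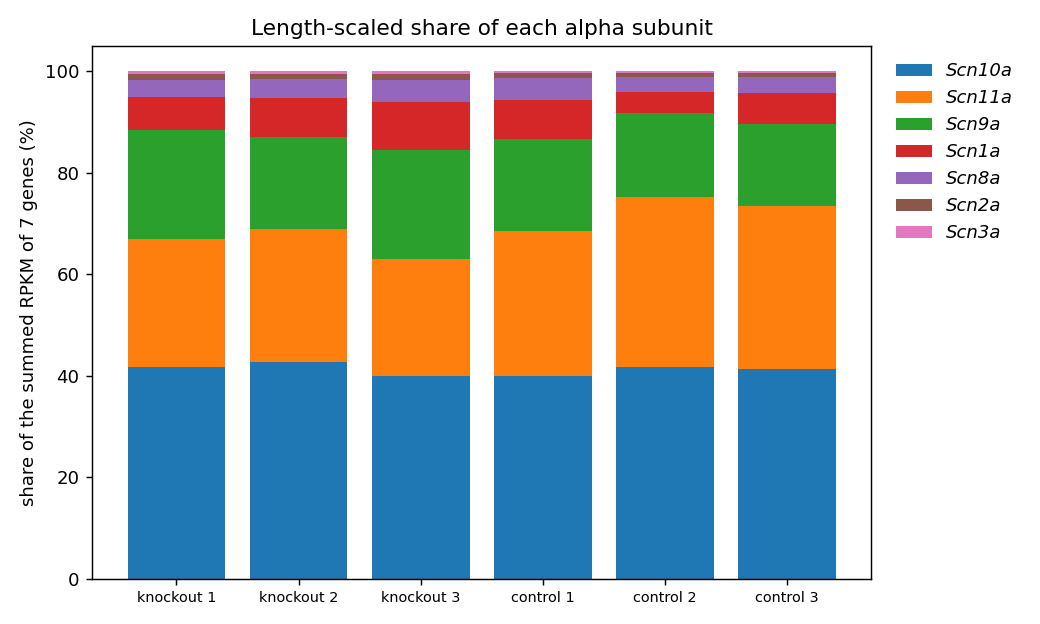
Share of each alpha subunit in the summed RPKM of the 7 genes (y axis, percent) in each library (x axis, conditional knockout left of control). The Scn10a segment is between 39.9% and 42.8% in all 6 libraries, and the Scn11a segment is between 23.2% and 26.1% in the conditional knockout and between 28.4% and 33.6% in control.

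The ratio of 2 genes within a library does not depend on how libraries are scaled. Scn11a had 0.448, 0.455 and 0.433 reads per read of Scn10a in conditional knockout replicates 1 to 3, against 0.529, 0.601 and 0.578 in control. The 3 conditional knockout values lay close together and below all control values, although Scn10a itself differed between these libraries from 526 to 821 CPM. On the log2 scale the ratio of Scn11a to Scn10a was lower by 0.35 in the conditional knockout, which comes from log2 ratios of Scn10a to Scn11a of 1.17 ± 0.04 in the conditional knockout and 0.81 ± 0.09 in control (SD, n = 3 each). By exact permutation the two-sided p was 0.1, the smallest possible, which any ratio without overlap between the groups gives. This ratio was chosen after its values were seen, so that p is no support for a difference. Leaving out each library in turn gave differences from -0.40 to -0.31, whose sign was fixed by the lack of overlap.

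Scn11a had 0.543, 0.665 and 0.502 reads per read of Scn9a in the conditional knockout, against 0.724, 0.952 and 0.932 in control, again without overlap. Scn3a was high against Scn9a, with 0.0244, 0.0241 and 0.0239 reads per read of Scn9a in the conditional knockout and 0.0187, 0.0194 and 0.0209 in control. Scn1a was high against Scn8a, with 1.39, 1.41 and 1.55 reads per read of Scn8a in the conditional knockout and 1.23, 1.03 and 1.35 in control. Of all 21 pairs of members, 9 had ratios without overlap between groups, a share of 42.9%. Among all pairs of tested genes with a mean of at least 10 CPM that share was 9.35%. The 21 pairs reuse 7 genes and are not independent, and 4 of the 9 include Scn11a and 4 include Scn3a, with 1 pair holding both. The ratios shown here were chosen after their values were seen.

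**Figure D4:**
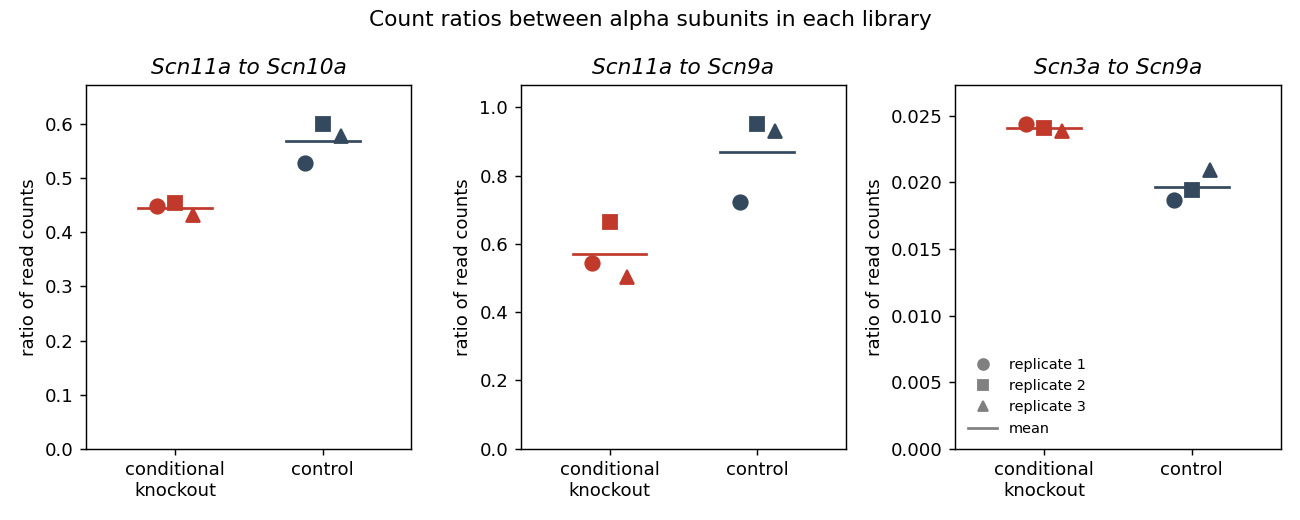
Ratio of read counts in each library (y axis, from 0) for Scn11a to Scn10a, Scn11a to Scn9a and Scn3a to Scn9a, with the conditional knockout left and control right and the mean as a line. In all 3 panels the groups do not overlap: the ratio of Scn11a to Scn10a is 0.433 to 0.455 in the conditional knockout and 0.529 to 0.601 in control.

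Within the conditional knockout the members had nearly the same order of libraries. Replicate 2 was the highest of its group for 7 of 7 members and the highest of all 6 libraries for 6 of 7, the exception being Scn11a. Replicate 1 was the lowest of its group for 6 of 7, again except Scn11a. For Scn10a, replicates 1 and 3 were nearly tied, at 525.7 and 525.9 CPM. The share of all tested genes with this order of libraries was not counted. The general neuronal markers had the same order, with a mean log2 deviation from the 6-library mean of -0.29, 0.15 and -0.03 in conditional knockout replicates 1 to 3 and of 0.06, 0.01 and 0.11 in control. Set against these markers within each library, Scn3a was higher in the conditional knockout by 0.44 and Scn2a by 0.30 on the log2 scale, both without overlap between groups, where 10.6% of all tested genes had no overlap on this scale. Scn11a was lower by 0.46 with overlap, and Scn10a, Scn9a, Scn1a and Scn8a differed by -0.11, 0.14, 0.28 and 0.01.

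The neuron classes that carry these channels did not all stand level either, and their lists were written with earlier results of these data known. Of 13 markers of non-peptidergic nociceptors, which include itch and pain receptors, 11 were on the lower side and the median log2 difference was -0.55. With edgeR 0 passed over all genes and 8 had an unadjusted p under 0.05, against 4.67% of all tested genes. DESeq2 called 1, Lpar5, against 0.109% of all genes. Among them the lysophosphatidic acid receptor Lpar5 was at 2.28 ± 0.463 CPM in the conditional knockout and 6.45 ± 0.899 CPM in control (SD, n = 3 each, edgeR adjusted p 0.331, DESeq2 adjusted p 0.00013), and the Mas-related receptor Mrgprb5 was at 7.66 ± 1.47 CPM in the conditional knockout and 12.1 ± 0.496 CPM in control. Of 10 markers of peptidergic nociceptors, 3 were lower and 7 higher, with a median of 0.16. The neuropeptide gene Adcyap1 was at 0.32 ± 0.11 (SE) and the neurotrophic factor receptor Gfra3 at 0.23 ± 0.13 on the log2 scale. Of 14 myelinated neuron markers 9 were lower, with a median of -0.08. Among these was Ret, at a log2 fold change of -0.46, which is described below as close to Scn11a in pattern. Of 5 markers of C-fibre low-threshold mechanoreceptors 4 were lower, with a median of -0.12.

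The log2 CPM of Scn11a stood above the mean of the non-peptidergic markers by 3.53, 4.04 and 3.39 in conditional knockout replicates 1 to 3 and by 3.75, 3.63 and 3.62 in control. Conditional knockout replicates 1 and 3 lay below every control library and replicate 2 lay above them all. The difference of the means was -0.01, and it was -0.20 without conditional knockout replicate 2. Against the peptidergic markers it stood at 1.34 ± 0.358 in the conditional knockout and 2.03 ± 0.216 in control (SD, n = 3 each), lower by 0.69 without overlap, where 15.3% of all tested genes had no overlap on that scale. Against the C-fibre mechanoreceptor markers it was lower by 0.52 without overlap, where that share was 5.26%. It was also lower by 0.46 against the myelinated neuron markers, but with overlap. Scn3a was higher without overlap against the peptidergic markers, by 0.21, and against the C-fibre mechanoreceptor markers, by 0.38. It was also higher without overlap against the myelinated neuron markers, by 0.44, and the non-peptidergic markers, by 0.89. Scn2a was higher without overlap against the myelinated neuron markers, by 0.31, and the non-peptidergic markers, by 0.75, and overlapped against the others. The share of all tested genes without overlap against the myelinated neuron markers was not counted. Scn9a, which nociceptors of both kinds express, stood above the non-peptidergic markers by 4.47 ± 0.132 in the conditional knockout and 3.88 ± 0.290 in control, without overlap. On that scale 51.3% of all tested genes had groups without overlap. These comparisons were added after the data were seen, and the part of cell numbers in them was not tested.

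**Figure D5:**
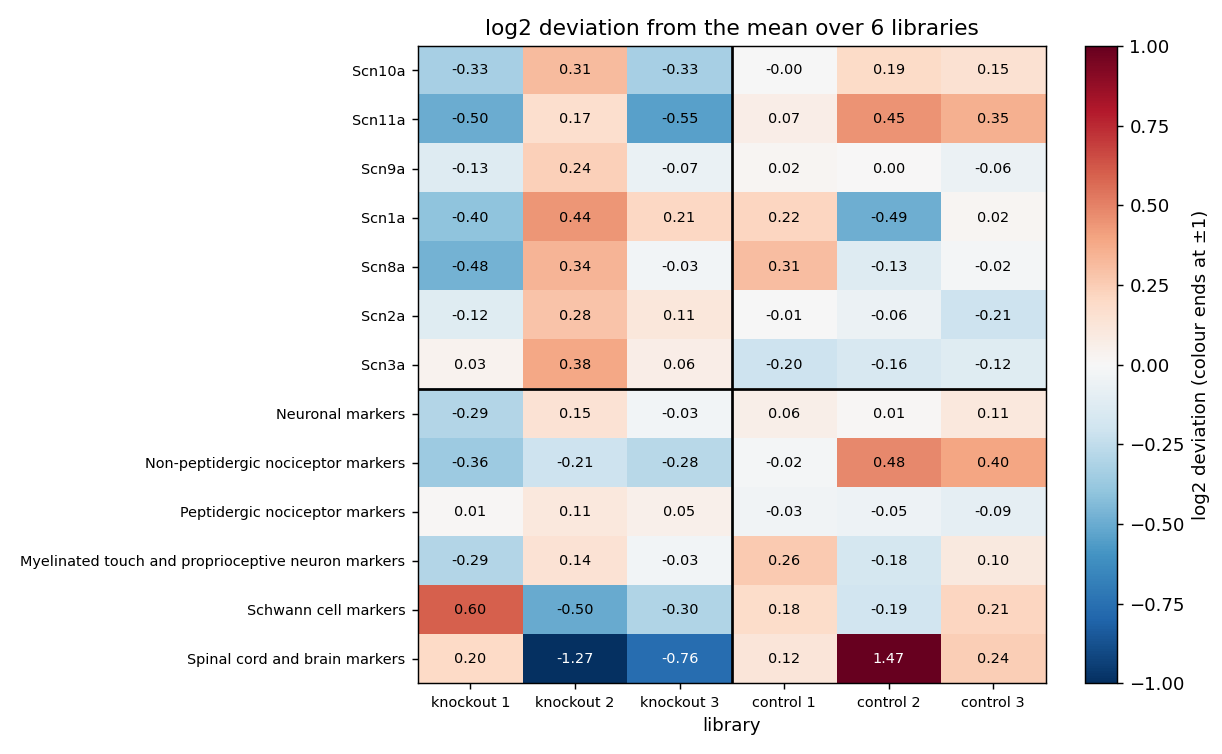
Log2 deviation of each alpha subunit (upper rows) and mean deviation of each marker list (lower rows) from the mean over the 6 libraries, by library (x axis, conditional knockout left of control), with colour from blue (low) to red (high) ending at ±1. Scn11a has -0.50, 0.17 and -0.55 in the conditional knockout and 0.07, 0.45 and 0.35 in control, and the non-peptidergic markers have -0.36, -0.21 and -0.28 in the conditional knockout and -0.02, 0.48 and 0.40 in control.

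The genes closest to each member in their pattern over the 6 libraries were found among 10029 genes with a mean of at least 10 CPM, by the root mean square difference between log2 deviations. For Scn11a, whose own deviation was 0.388, they were the phospholipase gene Plcb3, at a difference of 0.0599, and the neurotrophic factor receptor Ret, at 0.0705. Plcb3 was at 194, 282 and 195 CPM in the conditional knockout and 278, 369 and 359 CPM in control, with conditional knockout replicate 2 just above control replicate 1, as for Scn11a. For Scn10a they were Phf24 at 0.0351 and Lsm11 at 0.0368. For Scn9a they were the kinase gene Csnk1g1 at 0.0221 and Washc2 at 0.0262. For Scn8a they were Unc80, a subunit of the sodium leak channel complex, at 0.0311 and Vwa7 at 0.0394. For Scn1a they were Ttc39b at 0.0648 and Frrs1l, an AMPA receptor assembly factor, at 0.0680. For Scn2a they were the bicarbonate transporter Slc4a7 at 0.0259 and Akap8l at 0.0307, and for Scn3a the molybdenum cofactor enzyme Mocos at 0.0317 and the kinase Rps6kb2 at 0.0467. With 6 libraries and this many genes, close patterns are to be found for almost any gene.

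The members stand in 3 places in the genome. Scn3a, Scn2a, Scn1a and Scn9a lie with the non-member Scn7a on chromosome 2 between 65457118 and 66784914 (GRCm38), and all 5 were on the higher side, with log2 fold changes from 0.04 to 0.33. Scn10a and Scn11a lie next to each other on chromosome 9 between 119608456 and 119825456, and both were on the lower side, at -0.20 and -0.55. Without conditional knockout replicate 2, Scn1a and Scn9a were on the lower side as well, at -0.0055 and -0.08. Scn8a lies alone on chromosome 15 (100869858 to 101045938). Among tested genes within 500 kb that are no sodium channel genes, 4 of 8 were higher around the chromosome 2 cluster (median 0.0026), 10 of 18 around Scn10a and Scn11a (median 0.06) and 14 of 28 around Scn8a (median 0.03).

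Of the alpha subunit genes outside the set, Scn7a, whose product is a sodium-sensing channel rather than a voltage-gated one, was as high as the nociceptor channels, at 102 ± 10.3 RPKM in the conditional knockout and 85.3 ± 7.82 RPKM in control (SD, n = 3 each). It was at 667, 817 and 758 CPM in the conditional knockout and 678, 564 and 636 CPM in control, a log2 fold change of 0.26 ± 0.14 (SE, unadjusted edgeR p 0.0975). The skeletal muscle channel Scn4a was at 0.06 ± 0.24.

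The 4 beta subunits, which bind the alpha subunits and tune their gating and surface number, were all on the lower side, with a median log2 fold change of -0.29. Scn2b passed over all genes, at 13.2, 12.8 and 9.63 CPM in the conditional knockout against 30.0, 41.9 and 39.9 CPM in control (log2 fold change -1.65 ± 0.18 (SE), edgeR adjusted p 0.0270). DESeq2 gave an adjusted p of 2.4e-12. The edgeR call was lost when control replicate 1, 2 or 3 was left out (adjusted p 0.0654, 0.147 and 0.101), when conditional knockout replicate 3 was (0.257), under a replicate block (0.528), scaled to neuronal markers (0.428) and against a fold of 1.5 (0.144). Its log2 fold change stayed between -1.79 and -1.51 over single libraries left out. Scn4b was at -0.28 ± 0.22 on the log2 scale.

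Of 26 genes for proteins that bind, traffic or modify the channels, 10 were higher and 16 lower, with a median of -0.06, and 0 passed over all genes. With DESeq2 0 passed as well. An unadjusted edgeR p under 0.05 was found for 1 of the 26, a share no higher than the 4.67% of all tested genes. That gene was Tmem233, a membrane protein that associates with Nav1.7. It was at 317, 367 and 311 CPM in the conditional knockout and at 463, 481 and 473 CPM in control. The groups lay well apart, with a log2 fold change of -0.51 ± 0.12 (SE), an adjusted p of 0.825 with edgeR and 0.0626 with DESeq2. Next were Fgf14, an intracellular fibroblast growth factor that binds the channel tail, at 0.58 ± 0.26 (2.45 CPM in the conditional knockout and 1.63 CPM in control), and Nedd4l, a ubiquitin ligase that lowers channel number at the membrane, at -0.34 ± 0.16.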

How the data were processed

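The members and all gene lists were chosen with earlier results of these data known. The authors deposited raw read counts per gene symbol, a normalized signal, regularized log2 values, log2 fold changes, and p-values with fdrtool rates, per the file headers. Cutadapt, STAR, DESeq2 and mm10 are named in the submitters' processing notes; their versions and the counting program are not given here. Tests used only the deposited counts: edgeR 4.0.16 (R 4.3.3) kept 17759 of 22087 genes by filterByExpr (minimum count 10), scaled libraries by TMM and applied quasi-likelihood F tests with group as the only term. A Benjamini-Hochberg adjusted p under 0.05 passed. Standard errors were derived from the F statistic. The scripts were tested on simulated data. Alternatives used DESeq2 1.42.0 and limma 3.58.1, other scalings and filters, a replicate block, and each library left out. GENCODE M21 gene models matched 98.3% of tested genes by symbol, and RPKM uses their merged exons. Pattern distances and differences from marker lists use log2 CPM with a prior count of 2. Coding sequences stood in for the protein comparison that had been planned.

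Some items that the rule below covers are not reported here. Named genes are the members, up to 3 of smallest p from each channel list and 2 from each neuron marker list, Kif2a and Avil, and the 2 nearest patterns per member. Gm13629 is named besides, as it overlaps Scn9a. Markers of other cell types are given as sums, although the rule allowed 2 of each to be named. Correlations of log2 CPM within groups ranged from 0.965 to 0.988.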

Additional observations from a re-analysis of the deposited data

How the results depend on the processing

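None of the 7 members passed the threshold under any of the 18 alternatives run. Scn11a stayed lower in all of them (-0.81 to -0.35), as did Scn10a (-0.44 to -0.04), and Scn3a (0.22 to 0.41) and Scn2a (0.10 to 0.32) stayed higher. Over single libraries left out, Scn1a ranged from -0.0055 to 0.39, Scn9a from -0.082 to 0.12, Scn8a from -0.30 to 0.11 and the non-member Scn4a from -0.084 to 0.19, so these 4 changed side. Scn8a was also at 0.025 without both control replicate 2 and conditional knockout replicate 1. Other scalings moved the median of all genes by less than 0.1. The count of genes called in the whole table, 4, became 24 with DESeq2, 2 among genes averaging 5 CPM or more, 25 without control replicate 2 and conditional knockout replicate 1, 1 scaled to neuronal markers, 1 against a fold of 1.5, and 0 to 13 over single libraries left out. Under a replicate block it was 0, and Scn11a was at -0.58. The labels do not state that replicate numbers pair libraries, so the numbers were not taken as pairs. Same-numbered libraries correlated at -0.15, -0.25 and -0.13 in their deviations from the group means. Libraries of different number correlated at -0.06 to 0.20. With 3 libraries per group, whose deviations sum to 0 by construction, these few values do not settle whether libraries are paired. The gap in the joint share of Scn10a and Scn11a, -6.11 percentage points, ranged from -8.09 to -4.48 over single libraries left out and was -6.27 with longest transcripts. That of Scn11a alone ranged from -8.05 to -5.46. The cause of these shifts was not tested.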
